A study of Mus musculus with 4 samples.

Results

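Cells decide between survival and apoptosis largely through the BCL2 family of proteins, which act at the outer membrane of mitochondria. The survival members BCL2, BCL-XL (gene Bcl2l1) and MCL1 hold the pore formers BAX and BAK1 in check. The BH3-only members, among them BID, PUMA (Bbc3), BIM (Bcl2l11), NOXA (Pmaip1) and BMF, bind the survival proteins or act on the pore formers, so that cytochrome c leaves the mitochondria and caspases are activated. In the lung, death of alveolar epithelial cells is a recognised part of injury. The 10 genes described here were taken by symbol from the deposited gene tables, which list 23990 genes after joining, and all 10 were found.

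RNA was sequenced from alveolar type 1 (AT1) cells, the thin cells of the gas-exchange surface, sorted from mouse lungs at postnatal day 3 or 4 on a mixed B6 and 129 background. There were 2 Sox2-labelled libraries (genotype Scnn1a-Cre; Rosa[Sox2/+]) and 2 control-labelled libraries (genotype Scnn1a-Cre; Rosa[mTmG/+], a membrane reporter). All animals therefore carried a Cre recombinase named for the Scnn1a gene, and the labels give littermates but do not say whether animals were pooled. Since no label ties the libraries of a group to different animals, the p-values cover the spread between these libraries alone, which may be technical. Sox2 itself went against the labels, with 1.41 and 1.99 FPKM in the Sox2-labelled libraries against 302 and 477 FPKM in control-labelled ones. Directions below follow the labels as deposited and run against the measured level of Sox2.

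FPKM is a fragment count scaled by transcript length and sequencing depth, so levels of different genes can be compared per length. Absolute depth is unknown, and the deposited lower and upper bounds serve as a guide to precision. For genes of at least 1 FPKM the bounds lay a median of 7.94% and 12.4% either side of the value in the Sox2-labelled libraries, and 7.81% and 9.90% in control-labelled ones. Genes of small RNAs, by a symbol that starts with Mir or Snor, took 14.0% and 5.76% of summed FPKM in the Sox2-labelled libraries and 19.3% and 50.9% in control-labelled ones. The median log2 difference of the 12040 tested genes was -0.29, and differences are to be read against it. AT1 markers were expressed in all libraries but unequally. Of 9 AT1 markers 8 were higher in the Sox2-labelled libraries by the test described below, where 4.20% of all tested genes were higher. The 9 summed to 5866 and 6896 FPKM in the Sox2-labelled libraries, against 1245 and 779 FPKM in control-labelled ones. All 6 cell division markers were lower, where 8.11% of all tested genes were lower, and 5 of the 6 stayed so under each rescaling described below. Their summed level was 47.2 and 18.1 FPKM in the Sox2-labelled libraries and 295 and 123 FPKM in control-labelled ones.

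The plainest differences within the family were those of Bcl2 and Bax, which were both lower in the Sox2-labelled libraries whether the values were used as deposited or rescaled. Mcl1 and Bmf lay on the other side, higher in every Sox2-labelled library, and passed the threshold after rescaling but not with the values as deposited. All 10 genes had a mean of at least 1 FPKM and were tested in limma on log2(FPKM + 1), with Benjamini-Hochberg adjusted p-values over the whole set of 12040 genes and a call under 0.05. Of the 10, 3 were lower (Bcl2, Bcl2l1 and Bax), where 8.11% of all tested genes were lower, and 0 were higher, where 4.20% of all tested genes were higher. At an unadjusted p under 0.05 in limma, 5 were lower, where 21.1% of all tested genes were lower, and 0 higher, where 8.47% of all tested genes were higher. Without Sox2-labelled replicate 1 limma called 1 of them lower (Bax), where 3.50% of all tested genes were lower, and without Sox2-labelled replicate 2 it called 0, where 0.955% were. It called 3 of them lower without control-labelled replicate 1, where 7.37% of all tested genes were lower, and 2 (Bcl2 and Bax) without control-labelled replicate 2, where 10.9% were. The calls over all genes thus also fell without either Sox2-labelled library. The libraries of the groups did not overlap for 9 of the 10 genes (58.1% of all tested genes), 6 of them lower (42.5% of all tested genes) and 3 higher (15.7% of all tested genes).

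**Figure D1:**
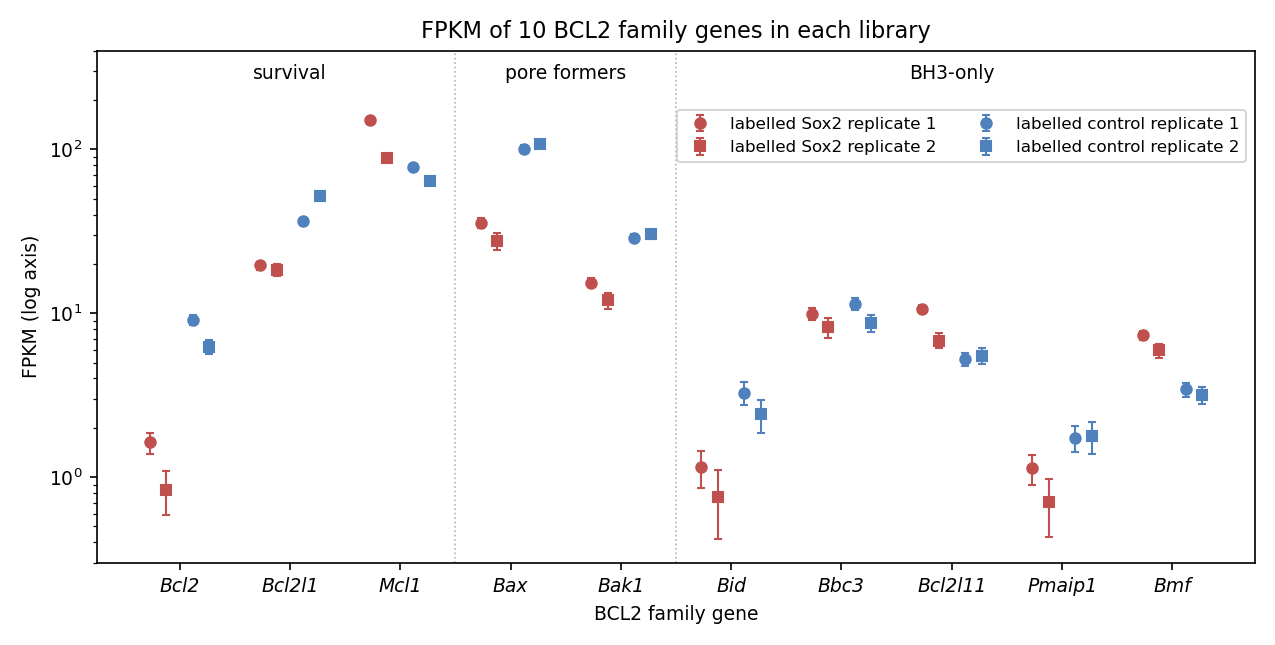
FPKM on a log axis for each of the 10 genes, with 1 point per library (circles are replicate 1, squares replicate 2) and bars from the deposited lower to the upper bound. Red points are Sox2-labelled libraries and blue points control-labelled libraries. Bcl2, Bcl2l1, Bax, Bak1, Bid and Pmaip1 sit lower in red, Mcl1, Bcl2l11 and Bmf higher, and Bbc3 overlaps.

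The stretches of 250 bases before the start of Bcl2, Bax and Mcl1 are shown because they are the genes that set the contrast within the family, and the stretch before an internal start of Bbc3 because it holds matches for both SOX and FOXO factors. They are from RefSeq on build GRCm38.p6, 5′ to 3′ on the gene's strand, for Bcl2 chr1:106714291-106714540 (minus strand), Bax chr7:45466899-45467148 (minus strand), Mcl1 chr3:95658471-95658720 (plus strand) and Bbc3 chr7:16310011-16310260 (plus strand). Capitals mark matches on either strand to a SOX core (CATTGT), a FOXO core (GTAAACA), an E-box (CACGTG), a cyclic AMP response core (TGACGT) or the p53 decamer.
Bcl2: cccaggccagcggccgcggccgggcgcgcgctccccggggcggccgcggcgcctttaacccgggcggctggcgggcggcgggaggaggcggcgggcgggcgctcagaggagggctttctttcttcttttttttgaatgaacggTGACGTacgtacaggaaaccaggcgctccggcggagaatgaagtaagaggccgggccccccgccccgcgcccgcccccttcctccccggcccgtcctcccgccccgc
Bax: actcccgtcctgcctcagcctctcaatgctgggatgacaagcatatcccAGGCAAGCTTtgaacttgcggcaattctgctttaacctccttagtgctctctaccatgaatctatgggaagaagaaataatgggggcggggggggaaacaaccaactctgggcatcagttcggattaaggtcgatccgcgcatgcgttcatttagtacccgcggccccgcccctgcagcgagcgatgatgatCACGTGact
Mcl1: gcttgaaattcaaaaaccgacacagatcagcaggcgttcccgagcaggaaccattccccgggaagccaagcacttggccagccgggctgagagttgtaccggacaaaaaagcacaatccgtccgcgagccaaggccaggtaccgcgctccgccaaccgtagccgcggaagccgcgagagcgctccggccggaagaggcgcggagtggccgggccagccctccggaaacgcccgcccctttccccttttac
Bbc3: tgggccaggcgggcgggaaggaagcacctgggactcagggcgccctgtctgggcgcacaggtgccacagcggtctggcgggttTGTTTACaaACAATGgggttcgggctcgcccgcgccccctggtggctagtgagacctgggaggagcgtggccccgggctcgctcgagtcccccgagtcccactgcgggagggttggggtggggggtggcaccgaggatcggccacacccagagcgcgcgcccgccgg

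The Bcl2 stretch held 1 cyclic AMP response core, the Bax stretch 1 p53 decamer and 1 E-box, and the Mcl1 stretch none of the 5 motifs. In the Bbc3 stretch the FOXO match, which starts at -167 from that internal start, and the SOX match, which starts at -158 from it, are separated only by the lower-case aa. Of the 16 stretches found for 9 of the genes, 3 held a SOX core, 2 a FOXO core, 2 an E-box, 1 a cyclic AMP response core and 2 a p53 decamer. Among 32851 stretches of this length, 10.7% held a SOX core, 3.17% a FOXO core, 6.02% an E-box, 6.47% a cyclic AMP response core and 7.13% a p53 decamer. These are matches of letters and not measured binding.

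Among the survival genes, Bcl2 and Bcl2l1 were lower and Mcl1 was not. Bcl2, the founding member of the family (chromosome 1, 106538178 to 106714290, mm10), stood at 1.63 and 0.839 FPKM in the Sox2-labelled libraries against 9.14 and 6.27 FPKM in control-labelled ones. Both Sox2-labelled libraries lay far below both control-labelled libraries, and the deposited bounds did not meet. The means were 1.23 ± 0.559 and 7.71 ± 2.03 FPKM (SD, n = 2 each), 6.24-fold lower, and the log2 difference was -1.97 with an SE of 0.41 (limma adjusted p = 0.0124). Exons of an antisense gene cover 558 bases of its 9157 exon bases, and the strand setting is not given. The call ended without Sox2-labelled replicate 1 (limma adjusted p = 0.0563) or Sox2-labelled replicate 2 (0.186).

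Bcl2l1, whose longer product BCL-XL protects cells and whose shorter splice form promotes death, stood at 19.6 and 18.3 FPKM in the Sox2-labelled libraries against 36.4 and 51.6 FPKM in control-labelled ones. It was 2.32-fold lower and the groups did not overlap (log2 difference -1.15, SE 0.33, limma adjusted p = 0.0433). The call ended under both rescalings (-0.81 and -0.83, limma adjusted p = 0.157 and 0.116). It also ended without Sox2-labelled replicate 1 (0.136), Sox2-labelled replicate 2 (0.267) or control-labelled replicate 2 (0.176), so it is the least firm of the 3. Gene-level values do not separate the splice forms.

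Mcl1 encodes a survival protein that turns over quickly. It stood at 152 and 89.2 FPKM in the Sox2-labelled libraries against 77.7 and 64.2 FPKM in control-labelled ones. Both Sox2-labelled libraries were above both control-labelled ones, but replicate 1 was far above replicate 2, and the log2 difference of 0.71 (95% interval -0.04 to 1.46, limma adjusted p = 0.192) did not pass. After median-of-ratios rescaling it was 1.06 and after quantile normalization 1.01, and both passed (limma adjusted p = 0.0377 and 0.0471).

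Of the pore formers, Bax was lower and Bak1 did not pass. Bax, which moves from the cytosol into the mitochondrial membrane on activation, stood at 35.6 and 27.8 FPKM in the Sox2-labelled libraries against 101 and 108 FPKM in control-labelled ones. The groups were far apart next to the spread within each, with means of 31.7 ± 5.50 and 104 ± 4.86 FPKM (SD, n = 2 each). Bax was 3.29-fold lower, and the log2 difference of -1.70 with an SE of 0.31 (limma adjusted p = 0.00655) also passed under both rescalings (-1.35 and -1.39) but not without Sox2-labelled replicate 2 (limma adjusted p = 0.0867). It shares 192 of its 1576 exon bases with the predicted gene Gm45808 on the same strand.

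Bak1, the pore former that resides in the outer membrane, stood at 15.4 and 12.0 FPKM in the Sox2-labelled libraries against 28.9 and 30.4 FPKM in control-labelled ones. The groups did not overlap, yet the log2 difference of -1.07 (95% interval -1.79 to -0.35) fell short of the threshold (limma adjusted p = 0.0555). It also missed it after median-of-ratios rescaling (-0.73, limma adjusted p = 0.0974) and quantile normalization (-0.75, 0.0714), and passed in 3 of 13 alternatives. Up to 614 bases of Bak1 exons overlap Ggnbp1 on the opposite strand. Ggnbp1 was listed at 1.96 and 1.06 FPKM in the Sox2-labelled libraries and 0.758 and 1.31 FPKM in control-labelled ones, well under Bak1.

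The BH3-only genes did not move one way. Bmf, whose protein is held at the cytoskeleton through dynein light chain 2 until cells detach, stood at 7.32 and 5.95 FPKM in the Sox2-labelled libraries against 3.44 and 3.17 FPKM in control-labelled ones. The bounds did not meet, and the 2.01-fold difference (log2 difference 0.82, 95% interval -0.02 to 1.66) did not pass in limma (adjusted p = 0.178). It passed after median-of-ratios rescaling (1.11, limma adjusted p = 0.0333) and quantile normalization (1.06, 0.0356). Dynll2, which encodes that light chain and was named after its values were seen, did not pass, with a log2 difference of -0.63 (limma adjusted p = 0.206).

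Bcl2l11 encodes BIM, a BH3-only protein that binds all the survival proteins. It stood at 10.6 and 6.82 FPKM in the Sox2-labelled libraries and 5.27 and 5.49 FPKM in control-labelled ones. Sox2-labelled replicate 1 was well above the other libraries, while replicate 2 was only just above the control-labelled libraries. The log2 difference of 0.58 (95% interval -0.27 to 1.43) did not pass (limma adjusted p = 0.347).

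Bid links death receptors to mitochondria once caspase 8 cuts its protein. It stood at 1.15 and 0.758 FPKM in the Sox2-labelled libraries and 3.27 and 2.42 FPKM in control-labelled ones. The groups did not overlap and the log2 difference of -0.97 (95% interval -1.83 to -0.11) did not pass (limma adjusted p = 0.123). Up to 628 bases of its exons overlap Bcl2l13 on the opposite strand. Bcl2l13 was more abundant, with 6.67 and 5.48 FPKM in the Sox2-labelled libraries and 11.2 and 9.05 FPKM in control-labelled ones, so without strand the Bid values could hold fragments of its neighbour.

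The p53 targets Bbc3 and Pmaip1 did not pass. Bbc3 stood at 9.93 and 8.20 FPKM in the Sox2-labelled libraries and 11.4 and 8.73 FPKM in control-labelled ones, and was the only one of the 10 genes whose groups overlapped. Its log2 difference of -0.13 (95% interval -0.93 to 0.66, limma adjusted p = 0.848) turned to 0.19 and 0.16 under the rescalings, so it has no stable direction. Pmaip1 was the least abundant of the 10, with 1.13 and 0.707 FPKM in the Sox2-labelled libraries and 1.74 and 1.78 FPKM in control-labelled ones, and a log2 difference of -0.53 (95% interval -1.38 to 0.31, limma adjusted p = 0.388).

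**Figure D2:**
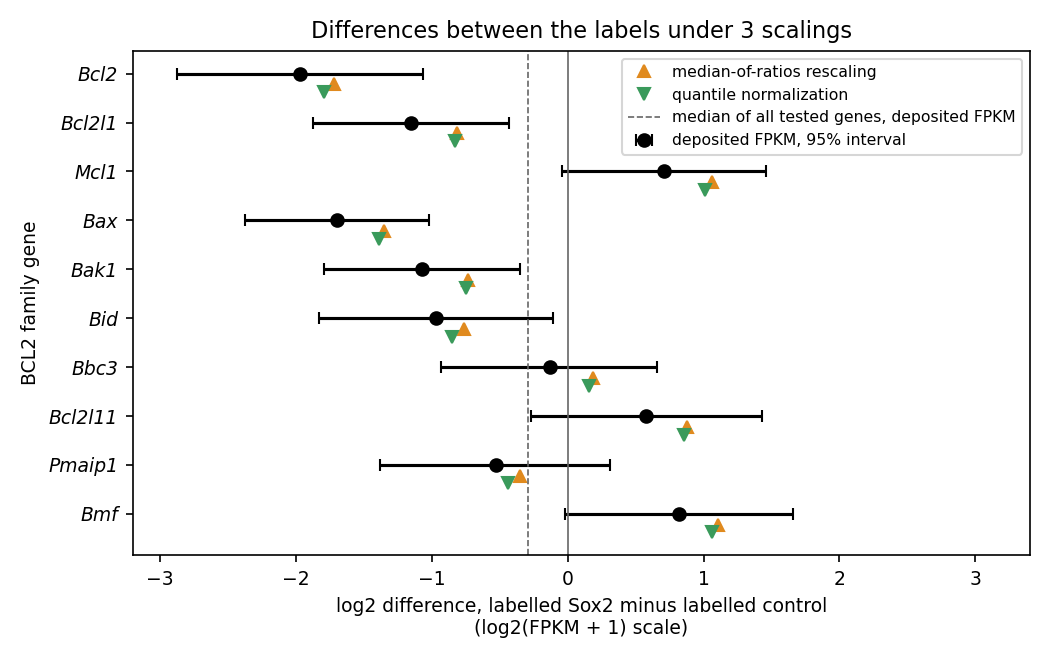
Log2 difference, labelled Sox2 minus labelled control, for each gene. Black points with 95% intervals from limma use the deposited FPKM, orange and green triangles the 2 rescalings, and the dashed line is the median of all tested genes at -0.29. Both rescalings shift the genes to the right, and Bcl2 and Bax stay well below 0 under each.

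The rescalings set the median difference of all tested genes to 0.00 (median-of-ratios) and -0.04 (quantile). Under each of them 2 of the 10 genes were higher, Mcl1 and Bmf, where 8.01% and 8.14% of all tested genes were higher. Under each 2 were lower, Bcl2 and Bax, where 5.70% and 6.87% of all tested genes were lower. Bcl2l11 moved to 0.88 and 0.86 and still did not pass (limma adjusted p = 0.0657 and 0.0692).

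Ratios between genes of the same library do not change when the whole library is multiplied by a common factor, as in median-of-ratios rescaling. Quantile normalization can change them, and the ratios given here are from the deposited FPKM. The order of levels had Mcl1 first and Bax second in both Sox2-labelled libraries, and Bax first and Mcl1 second in both control-labelled libraries. Bcl2l1 and Bak1 followed in all 4 libraries, each apart from its neighbours by the deposited bounds. At the low end the order among Bcl2, Bid and Pmaip1 in the Sox2-labelled libraries was within the bounds of neighbouring genes, whereas Bcl2 stood above Bmf in control-labelled ones. The ratio of Bax to Mcl1 was 0.235 and 0.312 in the Sox2-labelled libraries and 1.30 and 1.68 in control-labelled ones. Summed over both pore formers and all 3 survival genes, the ratio was 0.295 and 0.367 in the Sox2-labelled libraries against 1.05 and 1.13 in control-labelled ones. The ratio of Bax to Bak1 differed less, with 2.31 and 2.33 in the Sox2-labelled libraries against 3.49 and 3.55 in the control-labelled libraries.

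The makeup of the survival genes differed as well. Mcl1 held 87.7% and 82.3% of their summed FPKM in the Sox2-labelled libraries and 63.0% and 52.6% in control-labelled ones. Bcl2l1 held 11.3% and 16.9% in the Sox2-labelled libraries against 29.5% and 42.3% in control-labelled ones. Bcl2 held 0.943% and 0.774% in the Sox2-labelled libraries against 7.42% and 5.14% in control-labelled ones. The summed level overlapped between labels, with 173 and 108 FPKM in the Sox2-labelled libraries and 123 and 122 FPKM in control-labelled ones. Within the BH3-only genes, Bmf held 24.3% and 26.5% in the Sox2-labelled libraries against 13.7% and 14.7% in control-labelled ones, and Bid held 3.82% and 3.38% in the Sox2-labelled libraries against 13.0% and 11.2% in control-labelled ones. Their summed level, 30.2 and 22.4 FPKM in the Sox2-labelled libraries and 25.1 and 21.6 FPKM in control-labelled ones, overlapped too. These sums and ratios are descriptions of 2 libraries a label and were not tested.

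**Figure D3:**
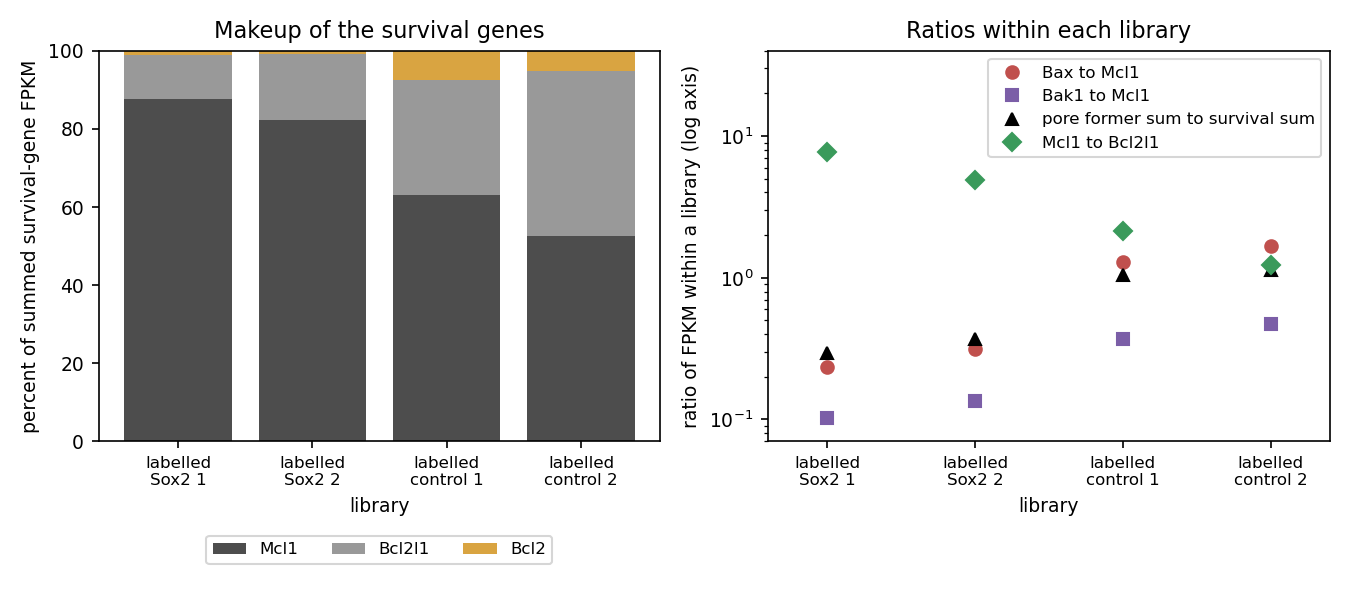
Left, the percent of summed survival-gene FPKM held by Mcl1, Bcl2l1 and Bcl2 in each library, as stacked bars. Right, ratios of FPKM within each library on a log axis, with 1 point per library. The Bax to Mcl1 ratio is below 0.4 in the Sox2-labelled libraries and above 1 in control-labelled ones, and the Mcl1 to Bcl2l1 ratio runs the other way, with 7.73 and 4.86 in the Sox2-labelled libraries against 2.13 and 1.24 in the control-labelled libraries.

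Other cell death genes were read from 4 lists, whose counts are to be set beside 8.11% of all tested genes lower and 4.20% higher, or 21.1% lower and 8.47% higher at an unadjusted p under 0.05 in limma. Of 12 tested genes among the rest of the BCL2 family, 1 was lower, 11 did not pass and 0 were higher in limma (1 higher and 2 lower at an unadjusted p under 0.05), and the median log2 difference was 0.30. The lower one was Bok, a BAX-like gene, with 3.20 and 1.71 FPKM in the Sox2-labelled libraries against 23.3 and 15.1 FPKM in control-labelled ones (log2 difference -2.55, SE 0.41, limma adjusted p = 0.00363, or 0.0702 without Sox2-labelled replicate 2). Bcl2a1b, a survival gene of blood cells, had 17.1 and 7.63 FPKM in the Sox2-labelled libraries against 5.07 and 0.654 FPKM in control-labelled ones, and was named after its values were seen. Its log2 difference of 1.98 did not pass (limma adjusted p = 0.0521) and did after rescaling (0.0434 and 0.0411). It has near-identical copies, so how its fragments were split is uncertain. The copies Bcl2a1a and Bcl2a1d overlapped between the labels and did not pass (limma adjusted p = 0.473 and 0.192). Neither passed after median-of-ratios rescaling (limma adjusted p = 0.200 and 0.0923) or quantile normalization (0.191 and 0.0760). Summed leukocyte markers ran 167 and 55.2 FPKM in the Sox2-labelled libraries and 51.1 and 51.6 FPKM in control-labelled ones, 1 of 5 tested was higher (Csf1r), and their part in the Bcl2a1b values was not tested.

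Downstream of the pore, 1 of 17 tested genes of caspases, the apoptosome and their inhibitors was lower, 16 did not pass and 0 were higher in limma (1 higher and 2 lower at an unadjusted p under 0.05), with a median log2 difference of -0.11. After each rescaling 1 was higher and 1 lower, where 8.01% and 8.14% of all tested genes were higher. The higher one was Birc3, named after its values were seen. Its log2 difference of 1.41 did not pass as deposited (limma adjusted p = 0.0716) and did after rescaling (0.0274 and 0.0241). The lower one, also with the values as deposited, was Birc5. This gene, which encodes survivin, a protein needed for chromosome segregation, stood at 6.93 and 3.53 FPKM in the Sox2-labelled libraries against 54.9 and 40.3 FPKM in control-labelled ones. It was 9.10-fold lower (log2 difference -3.00, SE 0.38, limma adjusted p = 0.00109) and passed with any 1 library left out.

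Of 12 tested death receptors and adaptors, 1 was lower, 11 did not pass and 0 were higher in limma (0 higher and 2 lower at an unadjusted p under 0.05), with a median log2 difference of -0.34. The lower one was Tnfrsf21, which encodes death receptor 6, at 9.85 and 4.73 FPKM in the Sox2-labelled libraries against 34.5 and 41.9 FPKM in control-labelled ones (log2 difference -2.31, SE 0.38, limma adjusted p = 0.00433). It was 5.24-fold lower, or 8.07-fold without Sox2-labelled replicate 1, and missed the threshold without Sox2-labelled replicate 2 (limma adjusted p = 0.0716).

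The list of upstream regulators holds genes that act on family genes or on family proteins. Of 16 tested, 3 were lower, 13 did not pass and 0 were higher in limma, with a median log2 difference of -0.30. At an unadjusted p under 0.05 in limma 4 were lower and 0 higher, where 21.1% and 8.47% of all tested genes were. Trp53, which encodes p53, an activator of Bax, Bbc3 and Pmaip1, stood at 27.6 and 12.1 FPKM in the Sox2-labelled libraries against 73.2 and 48.6 FPKM in control-labelled ones. It was 3.07-fold lower (log2 difference -1.65, SE 0.41, limma adjusted p = 0.0259), or 5.04-fold without Sox2-labelled replicate 1, and missed limma's threshold under quantile normalization (0.0522) and without Sox2-labelled replicate 2 (0.270). Mdm2, a p53 target that limits p53, gave a log2 difference of 0.03 (limma adjusted p = 0.963) and was named after its values were seen. Ywhaz, a 14-3-3 protein that can hold phosphorylated BAD, stood at 168 and 135 FPKM in the Sox2-labelled libraries against 459 and 367 FPKM in control-labelled ones (log2 difference -1.44, limma adjusted p = 0.0154, or 0.135 without Sox2-labelled replicate 2).

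Trp63, a p53 relative of basal airway cells, stood at 0.0605 and 0.0293 FPKM in the Sox2-labelled libraries against 2.38 and 14.4 FPKM in control-labelled ones (log2 difference -2.79, limma adjusted p = 0.0145). Its call ended under median-of-ratios rescaling (0.0638), quantile normalization (0.0744) and without Sox2-labelled replicate 1 (0.0779) or 2 (0.126). Its fold of 187 was 287 without Sox2-labelled replicate 1 and 139 without Sox2-labelled replicate 2. It was 322 without control-labelled replicate 1 and 52.9 without control-labelled replicate 2. These folds divide by values far under 1 FPKM, so their size is uncertain. Trp63 reached the mean of 1 FPKM needed for testing only through the control-labelled libraries.

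**Figure D4:**
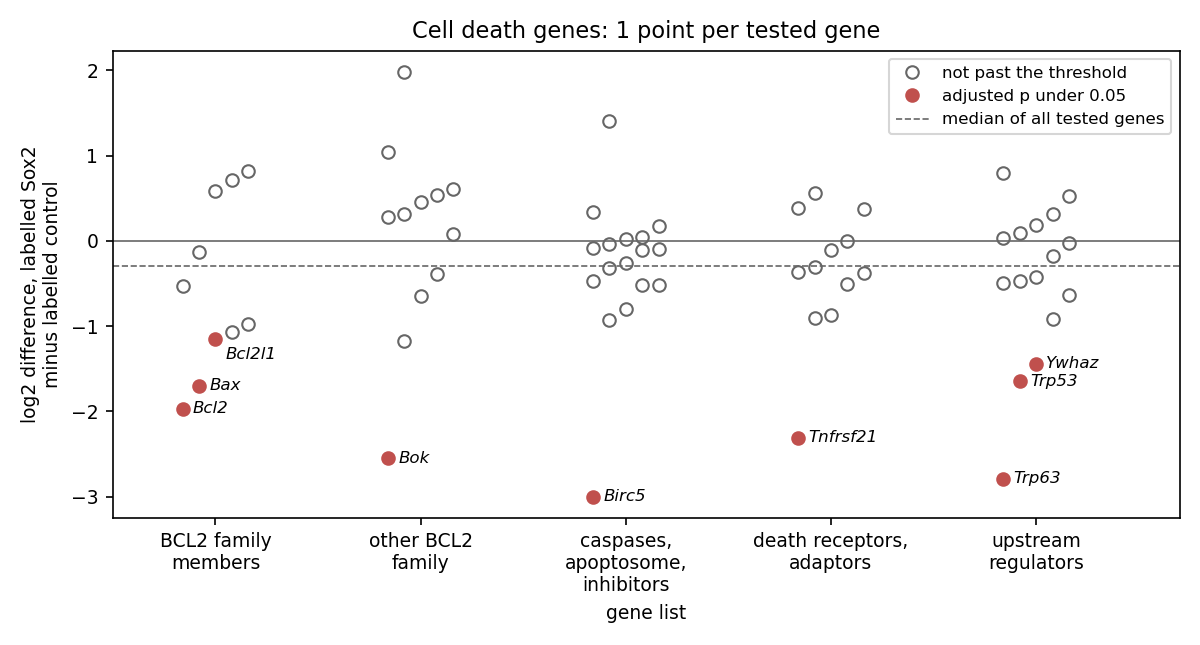
Log2 difference, labelled Sox2 minus labelled control, with 1 point per tested gene in the 10 BCL2 family genes and 4 further lists. Filled red points passed limma's adjusted threshold of 0.05 and are named, open points did not, and the dashed line is the median of all tested genes at -0.29. Every filled point lies below -1.

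Between the labels the lower genes shared their direction with the cell division markers and ran opposite to the AT1 markers given above. With 2 libraries a label, a shared direction does not show that genes track each other. The part of either kind of marker in these differences was not tested. In bulk RNA, fewer cells of a type and less RNA per cell cannot be told apart. The 6 AT2 markers were all higher, where 4.20% of all tested genes were higher. Their summed levels were 24067 and 16772 FPKM in the Sox2-labelled libraries against 5731 and 910.4 FPKM in control-labelled ones. After median-of-ratios rescaling 5 of the 6 passed in limma, and after quantile normalization 4. Sftpc made up most of the sum, with 21175 and 14800.5 FPKM in the Sox2-labelled libraries against 5003 and 796 FPKM in control-labelled ones. It was above each of the 9 AT1 markers in all 4 libraries. Of 7 immediate early genes, which respond to tissue dissociation, 1 was higher (Fosb), and their sum was 2513 and 1624 FPKM in the Sox2-labelled libraries against 1250.1 and 1181 FPKM in control-labelled ones. The erythroid markers summed to 236 and 1075 FPKM in the Sox2-labelled libraries and 64.3 and 282 FPKM in control-labelled ones, so they overlapped. Of 4 tested erythroid markers 1 was higher, the alpha globin gene Hba-a2, with 42.6 and 93.8 FPKM in the Sox2-labelled libraries against 0.0314 and 13.0 FPKM in control-labelled ones (log2 difference 4.08, limma adjusted p = 0.0160, or 0.0645 and 0.0675 after rescaling). Hba-a2 has a near-identical copy, Hba-a1, so how fragments were split between them is uncertain. Bcl2l1 is also a survival gene of red cell precursors, and the part of these cells in its values was not tested. Endothelial markers summed to 72.3 and 30.2 FPKM in the Sox2-labelled libraries against 23.4 and 6.47 FPKM in control-labelled ones, and mesenchymal markers to 274 and 91.1 FPKM in the Sox2-labelled libraries against 119.8 and 27.8 FPKM in control-labelled ones. Of these, 1 of 5 tested endothelial markers was higher (Cdh5) and 0 of 6 mesenchymal markers passed in limma. After median-of-ratios rescaling 1 endothelial, 2 mesenchymal and 3 immediate early markers were higher, where 8.01% of all tested genes were. After quantile normalization 2, 2 and 4 were, where 8.14% of all tested genes were. With the values as deposited, all 5 endothelial and 3 of the 6 mesenchymal markers were higher at an unadjusted p under 0.05 in limma. At that cut 4 of the 7 immediate early and 2 of the 4 tested erythroid markers were higher too, where 8.47% of all tested genes were. The airway markers summed to 3446 and 5923 FPKM in the Sox2-labelled libraries against 1889 and 1819 FPKM in control-labelled ones, so they did not overlap. Most of this sum was Scgb1a1, the secretoglobin of club cells, with 3263 and 5594 FPKM in the Sox2-labelled libraries against 1796 and 1730.2 FPKM in control-labelled ones (log2 difference 1.28, limma adjusted p = 0.0629). Of 5 tested airway markers 1 was higher (Scgb3a2) and 2 were lower (Trp63 and Muc5ac). Both lower ones reached a mean of 1 FPKM only through the control-labelled libraries. The part of airway cells in the family's values was not tested. The basal keratin Krt5 was too low to be tested, listed at 0 in both Sox2-labelled libraries and at 0.00602 and 0.686 FPKM in control-labelled ones.

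The genes whose pattern over the 4 libraries was most like that of Bcl2, by the distance between centred log2(FPKM + 1) profiles among 11423 genes, were Nop16 (a nucleolar protein, distance 0.033), Anxa1 (annexin A1, 0.058) and Tkt (transketolase, 0.072). Nop16 stood at 5.84 and 3.68 FPKM in the Sox2-labelled libraries against 24.7 and 17.8 FPKM in control-labelled ones. Nearest to Bmf were Rcan1 (a calcineurin inhibitor, 0.019), Ccdc3 (0.026) and Tfdp2 (a partner of E2F factors, 0.076). Rcan1 stood at 31.1 and 26.2 FPKM in the Sox2-labelled libraries against 16.4 and 15.4 FPKM in control-labelled ones. Of the 11423 genes, 27 lay within a distance of 0.25 of Bcl2 and 103 within 0.25 of Bmf.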

How the data were processed

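The authors deposited gene-level FPKM with a lower and an upper bound in 1 table for each of the 4 libraries, per the file headers. TopHat2, Bowtie2, Cufflinks and Cuffdiff with build mm10 are named per the submitters' processing notes, with versions, annotation and strand option not given in the sources used here. A further table of group values was not used because no label ties its columns to a group. The 24490 entries per table were joined by symbol and summed for 267 genes at several positions, and Rn45s was left out for its status flag. Genes averaging 1 FPKM or more were fitted as log2(FPKM + 1), which understates changes of low genes, in limma 3.58.1 (R 4.3.3) with lmFit and eBayes with trend, two-sided. The fit was tested on simulated data. An exact permutation test of 2 against 2 libraries cannot go below p = 0.333 and was not used. The 10 genes and the lists were chosen with earlier results of these data known. Genes named from a list are up to 4 past the threshold with the largest difference, and exceptions are stated. Patterns were compared for the genes with the most positive and most negative difference. Promoters and exon overlaps came from RefSeq (GRCm38.p6) and GENCODE M21. 1 gene of the caspase list is not reported here.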

Additional observations from a re-analysis of the deposited data

How the results depend on the processing

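Over 13 alternatives Bax passed in 11 of 13, Bcl2 in 9 of 12 and Bcl2l1 in 6 of 13. The signs of these 3 and of Mcl1, Bak1, Bid, Bcl2l11, Pmaip1 and Bmf held under both rescalings. The other alternatives could not change them, because the libraries of the groups did not overlap for these genes. Bbc3 changed sign to 0.19 (median-of-ratios rescaling), 0.16 (quantile normalization) and, with 1 library left out, ranged from -0.31 to 0.04 (the positive value without control-labelled replicate 1). Without the expression filter, limma called 0 of 18390 genes higher and 3 lower, and 0 of the 10 family genes lower. At an unadjusted p under 0.05 in that fit, 1251 genes were higher and 2618 lower, and 5 of the 10 family genes passed. That fit tests more genes and includes those of low values, and the cause of the drop in calls was not tested. Genes called higher numbered 506, against 964 after median-of-ratios rescaling and 980 after quantile normalization, and family genes called higher 0, against 2 under each rescaling; the cause was not tested. Leaving out 1 library gave 119 to 837 genes higher, 115 to 1312 lower and 0 to 3 family genes lower. Replicate numbers are shared by titles only, and deviations of same-numbered libraries correlated at r = 0.23 across genes. With the replicate block 1142 genes were higher and 2730 lower, with 1 family gene higher (Bmf) and 5 lower (Bak1 and Bid added). A mean of 5 FPKM as the filter removed Bcl2, Bid, Pmaip1 and Bmf. Unknown depth limits Bid and Pmaip1 most: over the 10 genes the bounds lay from 1.56% to 44.7% either side of the value.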
